A study of Mus musculus with 16 samples.

Results

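The agonist response shared by both nuclear populations is the change in nuclear RNA after an agonist of the aryl hydrocarbon receptor (AhR). Here it is fitted over neuronal and non-neuronal nuclei of the mouse colon together. It was taken from all 16 libraries of the series in 1 model with a term for population and a term for treatment. The treatment term sets 8 agonist libraries against 8 control libraries. Such a term can be carried by 1 population, so a shared value below need not be a change in both. The 4 groups, of 4 libraries each, were neuronal nuclei after 3-methylcholanthrene, non-neuronal nuclei after 3-methylcholanthrene, neuronal nuclei after corn oil and non-neuronal nuclei after corn oil. All mice were C57BL/6 kept free of specific pathogens, and in all of them the virus AAV9-CaMKII-EGFPKASH had been given intravenously 5 weeks before nuclei were collected. 3-Methylcholanthrene, a polycyclic aromatic hydrocarbon that binds AhR, or corn oil, its vehicle, was injected intraperitoneally 14 hours before isolation. Nuclei came from the peeled longitudinal muscle and the myenteric plexus attached to it. Nuclei with the EGFP tag were collected as neuronal and nuclei without it as non-neuronal, so the neuronal gate held nuclei that the virus had reached and in which the CaMKII promoter was active. The labels give neither the dose nor the age of the mice, and whether each library was a mouse of its own or a pool is not stated. All p-values below therefore speak only of the spread between these libraries.

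AhR waits in the cytoplasm in a complex with chaperones. When a ligand binds, it moves to the nucleus, pairs with ARNT and binds DNA at a short core sequence near genes of foreign-compound metabolism, of which Cyp1a1 is the standard readout. The response limits itself: AHRR, encoded by Ahrr, competes for ARNT, TIPARP (also PARP7) ADP-ribosylates AhR and shortens its action, and CYP1 enzymes break ligands down. In the gut wall, AhR has been studied in epithelium, in immune cells and in enteric neurons of the colon, where it takes part in the control of motility.

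Total counts ran from 2663738 to 4902303 per library. Neuronal markers were higher in the neuronal gate and not absent from the non-neuronal one. The 31 pan-neuronal genes summed to 5980 to 9470 CPM in neuronal agonist and 6000 to 6903 CPM in neuronal control libraries. They summed to 274.7 to 907.1 CPM in non-neuronal agonist and 372.3 to 1020 CPM in non-neuronal control libraries. Levels here and below are CPM, counts relative to library size, after TMM scaling, which corrects for differences in composition. They are not corrected for gene length. Transcripts of the mitochondrial genome, RNA from outside nuclei, made up 42.8%, 33.3%, 21.8% and 10.3% of counts in the non-neuronal agonist libraries 1 to 4, against 11.2% to 26.3% in the non-neuronal controls. The neuronal libraries held 1.77% to 5.28% of them after agonist and 1.95% to 6.11% after corn oil. Libraries of 1 group differed by more than counting noise in each of 24 pairs.

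The shared response that passed the test was a single gene. Of 18566 genes tested, Cyp1a1 was higher after the agonist at an adjusted p under 0.05, which is 0.00539% of the genes tested, and no gene was lower. The cytochrome P450 that Cyp1a1 encodes oxidises aromatic hydrocarbons, 3-methylcholanthrene among them. When each population was fitted alone and the larger of both p-values adjusted, no gene passed in both by edgeR's test, and DESeq2 called Cyp1a1 alone. No gene passed edgeR's test of a different response between populations, where the log2 fold change of 898 genes (4.84%) was above and that of 586 (3.16%) below the non-neuronal one in neuronal nuclei, sign included, at an unadjusted p under 0.05 (7.99% in all), and DESeq2 called 101. Other members of the AhR battery and the genes with the next smallest p-values are therefore described by their levels.

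Cyp1a1 (ENSMUSG00000032315, GRCm38 chromosome 9, 57687928 to 57703824, plus strand) was present in every agonist library and almost absent from the control libraries. In neuronal nuclei it stood at 2.52, 6.13, 6.49 and 8.05 CPM in agonist libraries 1 to 4 and at 0 CPM in each of the 4 control libraries. In non-neuronal nuclei it stood at 11.7, 8.57, 163 and 165 CPM in agonist libraries 1 to 4, and at 0, 0, 0.299 and 0 CPM in the controls. Every agonist library was above every control library of its population, and the non-neuronal agonist libraries fell into a low pair and a high pair. The agonist libraries held 1477 Cyp1a1 counts in all and the control libraries 1, a ratio of 1470 with a 95% exact Poisson interval of 264 to 58200 that covers counting error only. The neuronal libraries alone held 92 counts after agonist and 0 after corn oil, which is at least 30.1-fold higher when the control group is set at 3 counts.

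The fitted shared log2 fold change of Cyp1a1 was 9.14 (SE 0.98, adjusted p = 3.51e-05 by edgeR's quasi-likelihood test), a size that depends on how the fit treats the empty controls. Fitted apart, the log2 fold change was 7.53 (SE 1.54, adjusted p = 0.789) in neuronal and 9.63 (SE 1.39, adjusted p = 0.0134) in non-neuronal nuclei. A two-sided exact permutation test on log2(CPM + 1) with labels shuffled within each population gave p = 0.000408, the smallest that its 4900 arrangements allow. It was run on 9 AhR genes. The call ended when the number of genes detected per library entered the model as a covariate, with a log2 fold change of 8.21 (SE 1.64, adjusted p = 0.423). Genes detected differed between treatments, as given further on.

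The mean neuronal Cyp1a1 level after agonist was a small share of the non-neuronal mean, and the same share is given for markers of other cells. Mean Cyp1a1 in neuronal agonist libraries, 5.80 CPM, was 6.66% of the 87.0 CPM in non-neuronal agonist libraries. Summed over the same libraries, endothelial markers stood in the neuronal gate at 2.34% of their non-neuronal level, macrophage markers at 2.82%, epithelial markers at 1.15%, lymphocyte markers at 6.24%, smooth muscle markers at 9.2%, glial markers at 13.3%, fibroblast markers at 25.0% and markers of interstitial cells of Cajal at 93.8%. These shares ran from 1.15% to 93.8%, too wide a range to place the Cyp1a1 share. The non-neuronal Cyp1a1 mean came mostly from agonist libraries 3 and 4, at 163 and 165 CPM, against 11.7 and 8.57 CPM in libraries 1 and 2. Neuronal agonist libraries ran from 2.52 to 8.05 CPM. Whether RNA of other cells made up the neuronal Cyp1a1 signal was not tested. For Tiparp the neuronal level was 106% of the non-neuronal one.

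**Figure D1:**
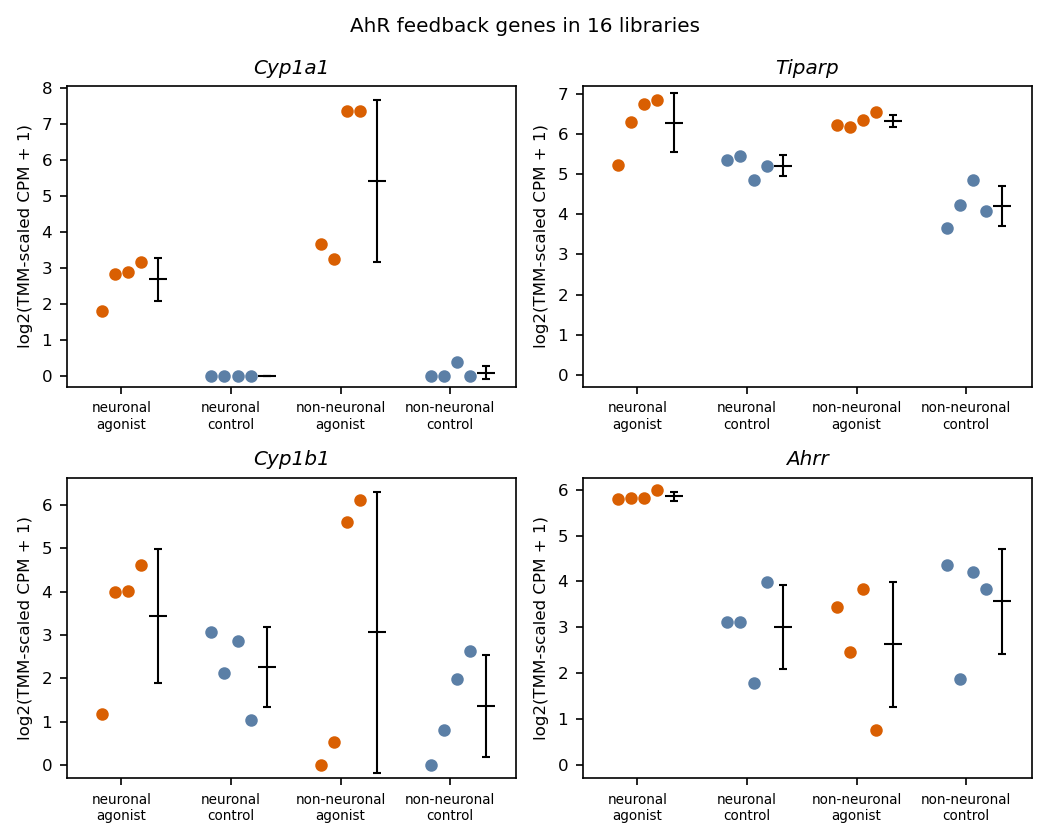
Levels of Cyp1a1, Tiparp, Cyp1b1 and Ahrr as log2(TMM-scaled CPM + 1) in 16 libraries, with agonist groups left of their controls; each point is 1 library and the bar beside it is mean ± SD over 4 libraries. Cyp1a1 separates agonist from control libraries in both populations, while Ahrr does so only in the neuronal panel, at 54.5 to 63.3 CPM against 2.42 to 14.9 CPM.

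Tiparp (ENSMUSG00000034640, chromosome 3, 65528410 to 65555518, plus strand), which encodes the ADP-ribosyltransferase that dampens AhR, had the second smallest p of the higher genes and did not pass across all genes. Neuronal agonist libraries 1 to 4 held 36.5, 77.9, 106 and 115 CPM, against 39.5, 42.6, 27.8 and 35.6 CPM in neuronal controls. Non-neuronal agonist libraries held 74.1, 71.8, 80.0 and 92.1 CPM, against 11.5, 17.6, 28.1 and 16.1 CPM in non-neuronal controls. All non-neuronal agonist libraries were above their controls, and among the neuronal ones library 1 alone lay within the control range. The shared log2 fold change was 1.66 (SE 0.34, adjusted p = 0.215), with 1.21 (SE 0.38) in neuronal and 2.17 (SE 0.60) in non-neuronal nuclei. The exact permutation test within populations gave p = 0.00122. Tiparp passed across all genes in 3 of 30 alternative settings and in none of the others. DESeq2 and limma-voom called it, at adjusted p = 0.000524 and 0.0100. The third setting left out neuronal agonist library 1, the 1 within the control range. The shared value was then 1.79 (SE 0.30), at an adjusted p of 0.0403 in edgeR. With the replicate number as a term the adjusted p was 0.510. Neuronal agonist library 1 also held the fewest genes detected of all 16.

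Ahrr, which encodes the AhR repressor and lies on chromosome 13, separated the groups in neuronal nuclei and not in non-neuronal nuclei. Its neuronal levels were 54.5, 55.6, 55.8 and 63.3 CPM after agonist, against 7.59, 7.70, 2.42 and 14.9 CPM after corn oil. Its non-neuronal levels were 9.82, 4.51, 13.3 and 0.695 CPM after agonist, against 19.5, 2.63, 17.3 and 13.2 CPM after corn oil. The log2 fold change was 2.81 (SE 0.52, adjusted p = 0.455) in neuronal and -0.84 (SE 1.21) in non-neuronal nuclei. The additive model gave a shared value of 0.98 (SE 0.79, adjusted p = 0.892). The difference between populations, 3.70 (SE 1.15), did not pass across all genes (adjusted p = 0.432).

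Cyp1b1, another P450 of the AhR battery, followed the same split of the non-neuronal agonist libraries as Cyp1a1. It stood at 1.26, 14.9, 15.1 and 23.3 CPM in neuronal agonist and at 7.33, 3.33, 6.28 and 1.05 CPM in neuronal control libraries. In non-neuronal nuclei it stood at 0, 0.451, 47.3 and 68.5 CPM after agonist and at 0, 0.751, 2.99 and 5.18 CPM after corn oil. Groups overlapped in both populations, and the shared log2 fold change of 2.62 (SE 1.03) had an adjusted p of 0.869. Non-neuronal agonist libraries 1 and 2, low in Cyp1a1 and Cyp1b1, were those with 42.8% and 33.3% mitochondrially encoded counts. With both left out the shared log2 fold change of Cyp1a1 was 10.01 (SE 0.78, adjusted p = 8.41e-08). A larger value was built in there, as these were the 2 agonist libraries lowest in Cyp1a1 of their group. The part of mitochondrially encoded transcripts in the low levels was not tested.

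The receptor and the remaining enzymes gave no shared difference that passed. Ahr itself, the receptor, stood at 69.6 to 146 CPM in neuronal agonist and 52.2 to 67.7 CPM in neuronal control libraries, and at 19.3 to 57.3 CPM in non-neuronal agonist and 21.0 to 39.6 CPM in non-neuronal control libraries, with a shared log2 fold change of 0.49 (SE 0.32, adjusted p = 0.881). Its partner Arnt had a shared value of -0.40 (SE 0.26, adjusted p = 0.881). Nqo1, a quinone reductase that NRF2 also drives, had 0.77 (SE 0.96, adjusted p = 0.931), and 1 library, non-neuronal agonist 1 at 45.3 CPM, was far above the other 15, which ran up to 17.9 CPM. Aldh3a1, an aldehyde dehydrogenase, had 48 counts after agonist and 1 after corn oil and was too low to test. Of the 48, 44 came from non-neuronal agonist library 2, at 19.9 CPM. Cyp1a2, whose gene lies beside Cyp1a1 and is expressed mainly in liver, had 0 counts after agonist and 1 after corn oil.

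The core sequence that the AhR and ARNT pair binds was looked up in promoters. Of the AhR genes described above, 7 had a promoter sequence to search, and 5 of these 7 (71.4%) held the core. Only 4 genes, all of which hold it, are shown here, to give where it lies before each start. The sequences are the 250 bases before the start site in RefSeq, build GRCm38.p6, written 5′ to 3′ on the gene's strand, with each GCGTG or its reverse complement CACGC in capitals. They lie at chr9:57697363-57697612 for Cyp1a1, chr3:65528197-65528446 for Tiparp, chr17:79715062-79715311 (minus strand) for Cyp1b1 and chr13:74292332-74292581 (minus strand) for Ahrr.
Cyp1a1: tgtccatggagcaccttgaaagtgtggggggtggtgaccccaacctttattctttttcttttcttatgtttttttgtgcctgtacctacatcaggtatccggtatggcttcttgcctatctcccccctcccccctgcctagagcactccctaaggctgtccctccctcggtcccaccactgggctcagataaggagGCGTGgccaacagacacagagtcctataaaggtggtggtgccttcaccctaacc
Tiparp: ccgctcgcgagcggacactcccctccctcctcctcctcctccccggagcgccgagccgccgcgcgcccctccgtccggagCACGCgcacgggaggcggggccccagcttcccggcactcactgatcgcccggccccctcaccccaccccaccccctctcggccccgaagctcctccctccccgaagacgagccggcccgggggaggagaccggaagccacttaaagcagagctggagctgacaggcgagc
Cyp1b1: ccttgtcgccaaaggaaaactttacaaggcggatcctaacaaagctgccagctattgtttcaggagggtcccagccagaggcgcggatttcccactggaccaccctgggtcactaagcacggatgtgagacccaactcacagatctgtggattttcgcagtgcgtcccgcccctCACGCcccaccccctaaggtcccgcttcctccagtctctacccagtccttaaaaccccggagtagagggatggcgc
Ahrr: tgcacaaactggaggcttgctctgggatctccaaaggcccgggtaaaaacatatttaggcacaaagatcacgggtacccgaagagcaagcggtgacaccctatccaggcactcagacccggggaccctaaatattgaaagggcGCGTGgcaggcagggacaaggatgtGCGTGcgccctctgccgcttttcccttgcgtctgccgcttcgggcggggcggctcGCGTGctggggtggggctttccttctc

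The Cyp1a1 window held 1 match, 54 bases before the start, and the Tiparp and Cyp1b1 windows 1 each, 170 and 76 bases before it. Ahrr held 3, at 107, 82 and 27 bases, all as GCGTG. The motif is short and common: it stands on either strand in 9250 of the 32851 promoters of the table (28.2%). Of 11662 tested genes with a promoter there, 5428 (46.5%) held it in at least 1 promoter. The first share counts promoters and the second genes, so they are not directly comparable. Of genes at an unadjusted p under 0.05 in the shared term, 190 of 388 higher ones (49.0%) and 106 of 295 lower ones (35.9%) held it. A match is a run of letters in this window and says nothing of binding there, and the enhancers further upstream that AhR is known to use at Cyp1a1 lie outside it.

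Beyond Cyp1a1, none of the higher genes with the smallest p-values passed across all genes in edgeR. At an unadjusted p under 0.05 the shared term held 531 higher genes (2.86% of those tested) and 504 lower ones (2.71%), 5.57% in all. Such a share is close to what that threshold lets through with no response at all, so the genes below are given as values. DESeq2 on the same model called 11 higher and 24 lower genes, and limma-voom with sample weights 6 and 1. Of the 10 higher genes with the smallest edgeR p, DESeq2 called Cyp1a1, Tiparp, Serpina3n, F13a1, Abca1, Maoa, Oxtr and Tmed7. Of the 10 lower ones it called Tnfsf18, Gm26775, Prickle3, Krt7 and 4931406B18Rik. For Gm20560, the lower gene with the smallest edgeR p, DESeq2 gave -6.34 (SE 1.19) and no adjusted p, so that gene could not be called.

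Serpina3n, a secreted inhibitor of serine proteases that rises in the acute phase, was higher in non-neuronal nuclei fitted alone. It stood there at 126, 157, 217 and 156 CPM after agonist, against 5.03, 6.76, 3.29 and 17.6 CPM after corn oil (log2 fold change 4.36, SE 0.62, adjusted p = 0.0134). In neuronal nuclei it stood at 0, 10.7, 0.26 and 21.1 CPM after agonist, against 2.88, 0.769, 1.21 and 1.57 CPM after corn oil. The non-neuronal groups were far apart and the neuronal groups overlapped. Its shared log2 fold change was 3.39 (SE 0.75, adjusted p = 0.224), and 3.63 (SE 0.61, adjusted p = 0.0403) without neuronal agonist library 1. Serpina3n passed in 3 of 30 alternative settings, that one included. The non-neuronal fit called 2 genes (0.0108%), Cyp1a1 and Serpina3n, none without its agonist library 3 or 4 or its control library 1, 2 or 3, and 1 without its control library 4.

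F13a1, the catalytic subunit of coagulation factor XIII and a gene of resident macrophages, had most of its counts in non-neuronal nuclei. It stood there at 69.2, 109, 77.4 and 30.1 CPM after agonist, against 16, 8.26, 6.88 and 8.29 CPM after corn oil. The neuronal libraries held 44 counts after agonist and 3 after corn oil. The shared log2 fold change was 3.16 (SE 0.70, adjusted p = 0.224). Macrophage markers summed to 366.2 to 826.7 CPM in non-neuronal agonist and 294.7 to 419.5 CPM in non-neuronal control libraries, ranges that overlap, and their part in the F13a1 level was not tested.

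Abca1, which exports cholesterol from cells, was clearest in neuronal nuclei. Neuronal agonist libraries held 281, 127, 146 and 147 CPM, against 60.7, 50.3, 42.0 and 54.6 CPM in neuronal controls. Non-neuronal agonist libraries held 94.1, 221, 334 and 136 CPM, against 110, 25.5, 73.6 and 159 CPM in non-neuronal controls. The neuronal groups did not overlap and the non-neuronal groups did. The shared log2 fold change was 1.42 (SE 0.34, adjusted p = 0.374), with an adjusted p of 0.407 in neuronal nuclei alone.

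Maoa, the monoamine oxidase that degrades serotonin and noradrenaline, stood at 23.0 to 51.2 CPM in neuronal agonist and 9.95 to 21.0 CPM in neuronal control libraries. In non-neuronal nuclei it stood at 311, 212, 44.7 and 90.0 CPM after agonist, against 45.0, 32.7, 79.2 and 37.3 CPM after corn oil. The neuronal groups were separate and the non-neuronal groups overlapped (shared log2 fold change 1.58, SE 0.38, adjusted p = 0.394). Oxtr, the oxytocin receptor, stood at 236, 12.7, 27.2 and 17.2 CPM in neuronal agonist libraries. Neuronal controls held 6.02, 8.98, 13.1 and 7.32 CPM, so that neuronal agonist library 1 was far above all others. Its non-neuronal levels were 7.56, 21.2, 6.01 and 0 CPM after agonist, against 0 to 1.88 CPM after corn oil (shared value 3.38, SE 0.83, adjusted p = 0.394). Prrt2, a presynaptic membrane protein, was also highest in neuronal agonist library 1, at 537 CPM. The other neuronal agonist libraries held 224, 117 and 45.2 CPM, and neuronal controls 53.7 to 88.0 CPM. Its non-neuronal levels were 17.8, 21.7, 47.6 and 129 CPM after agonist, against 13.9 to 20.0 CPM after corn oil (1.65, SE 0.43, adjusted p = 0.554). With genes detected as a covariate the Prrt2 value turned to -0.02 (SE 0.64).

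Oasl2, of the interferon-induced oligoadenylate synthetase family, stood at 110, 72.0, 63.9 and 109 CPM in neuronal agonist and at 43.2 to 56.4 CPM in neuronal control libraries. Its non-neuronal levels were 260, 22.1, 148 and 150 CPM after agonist, against 29.0 to 39.4 CPM after corn oil. Agonist was above control in every library but non-neuronal agonist library 2 (shared log2 fold change 1.46, SE 0.38, adjusted p = 0.554). Tmed7, a membrane protein of early secretory transport, had a shared value of 1.48 (SE 0.38, adjusted p = 0.549).

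**Figure D2:**
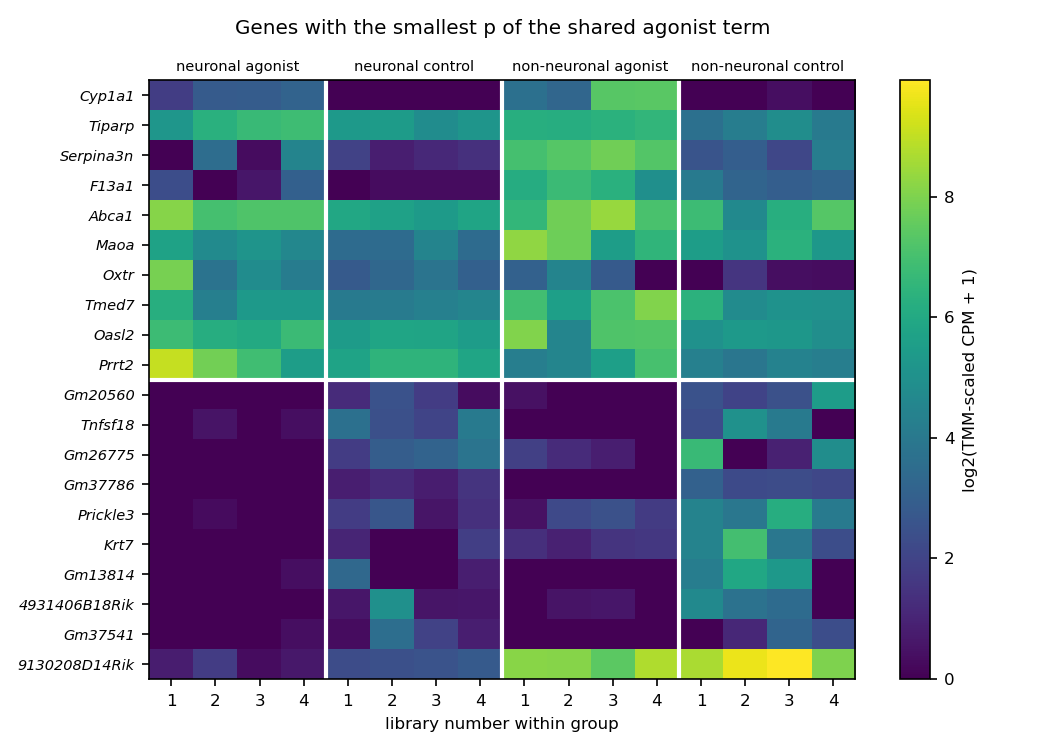
Levels as log2(TMM-scaled CPM + 1), on the colour scale, of the 10 higher and 10 lower genes with the smallest p of the shared term (rows) in the 16 libraries (columns, grouped, agonist left of control within each population). Most higher genes are well above 0 in all groups, while 9 of the lower genes stand at 0 to 4.45 CPM in the agonist libraries, with 9130208D14Rik the exception.

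The lower genes with the smallest p-values were mostly transcripts that were sparse in control libraries and at or near 0 after agonist. Gm20560 (ENSMUSG00000107546), annotated as an antisense transcript on chromosome 6, came closest to passing. It stood at 0 CPM in all 4 neuronal agonist libraries and at 1.31, 4.62, 2.42 and 0.262 CPM in neuronal controls. In non-neuronal nuclei it stood at 0.378, 0, 0 and 0 CPM after agonist, against 4.73, 3.00, 4.49 and 44.3 CPM after corn oil. Both populations separate without overlap on 1 count after agonist and 244 after corn oil, and 1 control library holds most of the non-neuronal signal. The shared log2 fold change was -6.59 (SE 1.18, adjusted p = 0.0905). Gm20560 passed in 2 of 29 alternative settings, with library size only as the scaling and with no filter. Whether the counting used strand is not given in the sources used here, so reads of the gene opposite it cannot be told apart.

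Tnfsf18, the ligand of the T-cell receptor GITR, held 3 counts after agonist and 287 after corn oil. Its control libraries held 11.5, 4.36, 3.14 and 15.9 CPM in neuronal and 4.14, 31.9, 15.8 and 0 CPM in non-neuronal nuclei. The adjusted p was 0.149, and 0.0473 without non-neuronal control library 4, the control that held none. Tnfsf18 passed in 3 of 29 alternative settings, that one included. Gm37786 had no count in any of the 8 agonist libraries and at least 1 in every control, 79 in all, so it was at least 26.4-fold lower (adjusted p = 0.215). It was 1 of 2 tested genes at 0 in all agonist libraries, and no tested gene was at 0 in all control libraries.

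Prickle3, of the planar cell polarity family, held 0, 0.219, 0 and 0 CPM in neuronal agonist and 2.36, 5.39, 0.483 and 1.57 CPM in neuronal control libraries. In non-neuronal nuclei it held 0.378, 3.61, 4.45 and 2.31 CPM after agonist, against 20.7, 14.3, 71.5 and 16.1 CPM after corn oil. Its groups were apart in both populations (shared log2 fold change -3.91, SE 0.83, adjusted p = 0.215). Krt7, a keratin of simple epithelia, stood at 0.903 to 2.08 CPM in non-neuronal agonist and 4.14 to 124 CPM in non-neuronal control libraries, and at 0 CPM in 4 neuronal agonist and 2 neuronal control libraries (adjusted p = 0.215). The long noncoding Gm26775 and Gm13814, Gm37541, whose type the annotation leaves unsettled, and the protein-coding 4931406B18Rik ran from 1 to 13 counts after agonist and from 105 to 583 after corn oil, with adjusted p from 0.215 to 0.234. The tenth, 9130208D14Rik, is annotated as an unprocessed pseudogene, whose counts can be divided with its parent gene, and stood at 170 to 432 CPM in non-neuronal agonist and 259 to 974 CPM in non-neuronal control libraries (-1.51, SE 0.35, adjusted p = 0.309).

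Fewer genes were detected in the agonist libraries, and sparse transcripts were more often at 0 in them. At an equal depth of 2663738 counts, neuronal agonist libraries held 16481 to 21075 genes and neuronal controls 20658 to 25862. Non-neuronal agonist libraries held 18641 to 20907 genes and non-neuronal controls 22148 to 27705. The mean difference within populations was -4296 genes (two-sided exact permutation p = 0.000816), and the non-neuronal groups did not overlap. The mitochondrially encoded share differed by 4.90 percentage points on average (p = 0.263 in the same exact permutation test). Of the tested genes, 111 were at 0 in at least 6 of 8 agonist and at most 2 of 8 control libraries, against 5 genes with the reverse pattern.

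The direction of the unadjusted calls differed with the level of the gene. Among 7612 genes with a mean under 10 CPM, 84 were higher and 286 lower at an unadjusted p under 0.05. From 10 to 50 CPM, 253 of 7549 were higher and 159 lower, and above 50 CPM 194 of 3405 were higher and 59 lower. The median log2 fold change was -0.22, 0.09 and 0.13 in these classes. Library complexity and treatment cannot be told apart in this design.

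**Figure D3:**
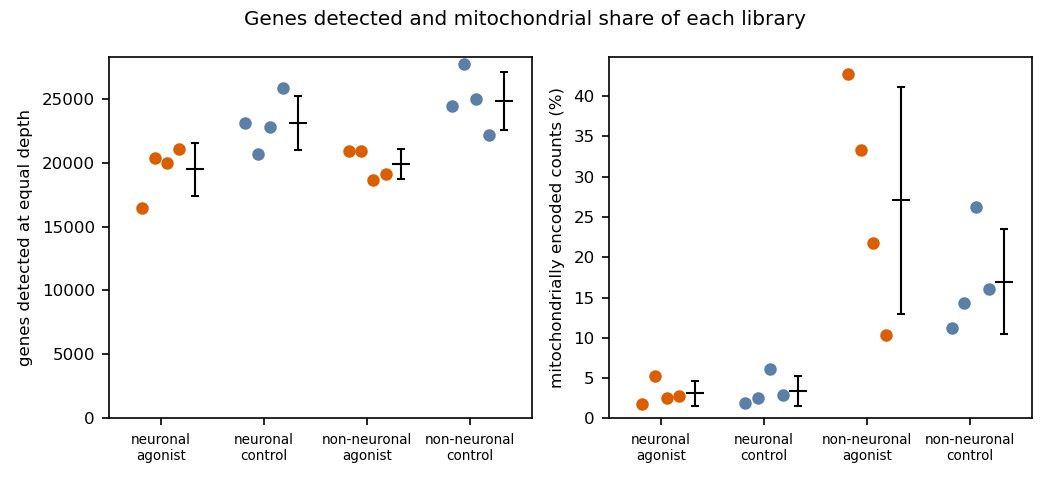
Genes detected at an equal depth of 2663738 counts (left) and mitochondrially encoded counts in percent (right) for each of 16 libraries; points are libraries and bars mean ± SD over 4. Agonist libraries sit at 16481 to 21075 genes and control libraries at 20658 to 27705.

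Across all genes, the fitted log2 fold changes of both populations were nearly uncorrelated. Noise in fits of 4 libraries a group lowers such a correlation, so it does not show that the responses are unrelated. The log2 fold changes of neuronal and non-neuronal nuclei, fitted apart on libraries they do not share, had a Pearson r of 0.0224 over 18566 genes, which are not independent. They had the same sign for 9557 genes (51.5%). Of 1167 genes at an unadjusted p under 0.05 in neuronal nuclei, 628 (53.8%) had the same sign in non-neuronal nuclei, and of 1213 such genes in non-neuronal nuclei 665 (54.8%) had it in neuronal nuclei. In neuronal nuclei these were 674 higher (3.63%) and 493 lower genes (2.66%), 6.29% of those tested, and in non-neuronal nuclei 558 higher (3.01%) and 655 lower (3.53%), 6.53% in all. At an adjusted p under 0.05 neuronal nuclei alone gave no call in edgeR and 21 in DESeq2. Under the unadjusted threshold in both were 28 genes higher in both (0.151%), 33 lower in both (0.178%) and 26 of opposite sign.

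Genes picked by the fits of each population and genes picked by the shared term come from the same libraries, so their overlap is largely built in. The 28 genes higher in both held 9 of the 10 higher genes with the smallest p of the shared term, all but Serpina3n. They also held Clk1, a kinase of splicing factors, at 1225, 964, 969 and 909 CPM in neuronal agonist and 830, 674, 688 and 582 CPM in neuronal control libraries. Its non-neuronal levels were 790, 1151, 1337 and 1394 CPM after agonist, against 921, 588, 770 and 712 CPM after corn oil (shared log2 fold change 0.60, SE 0.16, adjusted p = 0.554). The 33 lower in both held Ccn2, the matricellular connective tissue growth factor, at 0.252, 3.06, 2.34 and 7.77 CPM in neuronal agonist and 9.69, 10.0, 15.9 and 11.8 CPM in neuronal control libraries. In non-neuronal nuclei Ccn2 held 3.02, 6.77, 18.6 and 25.0 CPM after agonist, against 104, 49.2, 52.9 and 156 CPM after corn oil (-2.30, SE 0.56, adjusted p = 0.394). Clk1 and Ccn2 were chosen after their values were seen.

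Separation without overlap in both populations at once was rare. In neuronal nuclei alone it held for 223 genes above (1.2%) and 449 below (2.42%) every control, and in non-neuronal nuclei for 187 above (1.01%) and 479 below (2.58%). A total of 5 genes were above every control in each population, 0.0269% of those tested, and 14 below every control, 0.0754%. The opposite patterns, above in one population and below in the other, held for 4 genes higher in neuronal nuclei (0.0215%) and 5 higher in non-neuronal nuclei (0.0269%). Beside Cyp1a1, those above were Rab1a, a small GTPase of transport from the endoplasmic reticulum to the Golgi, the uncharacterised BC005537, Cdc23, a subunit of the anaphase-promoting complex, and Nmt1, which attaches myristate to proteins. BC005537 stood at 316, 214, 298 and 238 CPM in neuronal agonist and 180, 156, 155 and 127 CPM in neuronal control libraries. Its non-neuronal levels were 248, 176, 155 and 145 CPM after agonist, against 77.8, 132, 128 and 109 CPM after corn oil (shared log2 fold change 0.74, SE 0.21, adjusted p = 0.696). Those below every control included Gm20560, Gm37786, Prickle3, Ccn2 and Evc, a protein of the primary cilium, with Tnfsf4, the ligand of OX40, and Hc, complement C5.

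**Figure D4:**
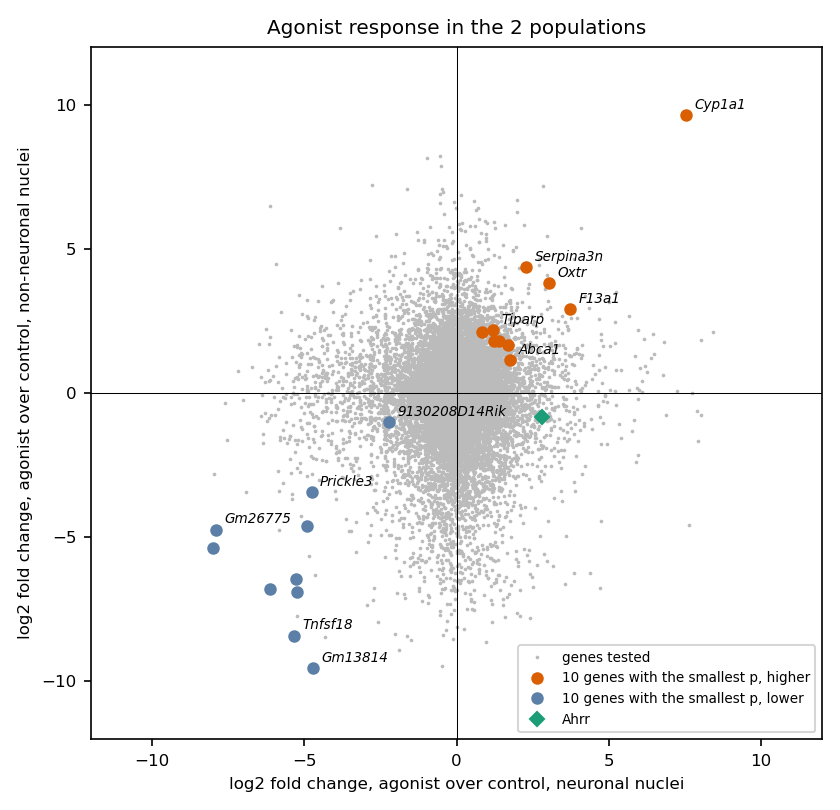
Log2 fold change of agonist over control in non-neuronal nuclei (vertical) against neuronal nuclei (horizontal) for 18566 genes; coloured points are the 10 higher and 10 lower genes with the smallest p of the shared term, and the diamond is Ahrr. Cyp1a1 stands apart at 7.53 and 9.63, and the cloud as a whole shows no slope (Pearson r 0.0224).

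Gene lists that fit the tissue and the compound gave Cyp1a1 as their only called member. Medians below are over members that passed the count filter, beside 0.03 over all genes tested, of which 9582 of 18566 had a positive value. The 15 AhR target genes had 12 members tested, with 1 called, 7 positive and a median of 0.39, and the median was below 0 in 4 of 30 alternative settings. Beside those described, Nfe2l2, which encodes the antioxidant regulator NRF2, stood at 90.8, 40.3, 61 and 46.3 CPM in neuronal agonist and 14.5 to 23.8 CPM in neuronal control libraries. In non-neuronal nuclei it stood at 439, 102, 138 and 206 CPM after agonist and at 81.8 to 192 CPM after corn oil (shared log2 fold change 1.19, SE 0.32, adjusted p = 0.626). Of 21 NRF2 target genes tested, 15 were positive (median 0.55), and 2 were higher at an unadjusted p under 0.05 (2.86% of all genes tested), Cbr1 and Cat, at 0.0107 and 0.0272. The 16 AhR pathway components, chaperones and coactivators among them, had a median of 0.24 and none called.

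Glucocorticoid-responsive and lipid genes had medians among the farthest from 0, without a called member. Of 18 glucocorticoid-responsive genes, 17 were positive, with a median of 1.01, and 0.49 in neuronal and 1.90 in non-neuronal nuclei. Zbtb16, a zinc-finger gene induced by glucocorticoids, stood at 38.5, 49.2, 49.2 and 31.5 CPM in non-neuronal agonist and 16, 6.01, 3.89 and 12.4 CPM in non-neuronal control libraries. Its neuronal levels were 15.1, 5.69, 0 and 2.77 CPM after agonist, against 0.769 to 2.88 CPM after corn oil (shared log2 fold change 1.86, SE 0.68, adjusted p = 0.869). Pdk4, which blocks pyruvate oxidation, had 2.34 (SE 0.78), and Ddit4, an inhibitor of mTOR signalling, 3.07 (SE 1.04). Of 20 fatty acid oxidation genes tested, 18 were positive (median 0.57).

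Cholesterol synthesis genes had the lowest median, -0.63, with 4 of 22 positive, and the medians were -0.10 in neuronal and -1.0 in non-neuronal nuclei. Dhcr7, the enzyme of the last step to cholesterol, stood at 3.40, 2.71, 1.31 and 5.32 CPM in non-neuronal agonist and 14.5, 16.1, 24.5 and 24.6 CPM in non-neuronal control libraries. In neuronal nuclei it stood at 10.3 to 33.2 CPM after agonist and 18.2 to 30.9 CPM after corn oil (shared log2 fold change -1.39, SE 0.60, adjusted p = 0.869). Hmgcs1 and Msmo1, enzymes of the same route, had -0.78 (SE 0.33) and -1.08 (SE 0.52). The non-neuronal medians of the glucocorticoid-responsive and cholesterol synthesis lists were farther from 0 than the neuronal ones, and that difference was not tested.

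Interferon-stimulated genes were positive in 16 of 23 (median 0.54), with none called. At an unadjusted p under 0.05, 5 of the 23 were higher and 0 lower, against 2.86% and 2.71% of all genes tested, and the 5 included Oasl2 and Ifit1. Inflammatory and acute-phase genes had a median of 0.84 over 12 tested members, 10 of them positive, with Serpina3n the highest and Ptgs2, the inducible cyclooxygenase, at -2.01 (SE 0.84, adjusted p = 0.869).

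Smooth muscle markers, of the cells that the peeled layer mostly holds, had a median of -0.53, with 4 of 21 positive and none called. Acta2, smooth muscle actin, stood at 17.6, 13.1, 20.0 and 39.1 CPM in neuronal agonist and 35.1, 34.9, 27.6 and 102 CPM in neuronal control libraries, and at 188 to 596 CPM in non-neuronal agonist and 366 to 1472 CPM in non-neuronal control libraries (-1.02, SE 0.34, adjusted p = 0.869). Summed smooth muscle markers ran from 5704 to 14280 CPM in non-neuronal agonist and from 8028 to 25010 CPM in non-neuronal control libraries. In such bulk samples, fewer cells of a type and less RNA per cell cannot be told apart. The 20 epithelial markers, of the mucosa beside the sampled layer, had a median of 0.24 with 11 positive and none called, and of -0.33 in neuronal and 0.64 in non-neuronal nuclei, and the shared median was below 0 in 10 of 30 settings. Among them the goblet cell genes Muc2 and Agr2 went the other way, with shared values of -1.81 (SE 0.52) and -2.51 (SE 0.70), both at an adjusted p of 0.826, and DESeq2 called both. All 20 epithelial markers summed to 1637 to 10510 CPM in non-neuronal agonist and 2136 to 18510 CPM in non-neuronal control libraries, and their part in the values of Muc2, Agr2 and Krt7 was not tested.

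Neuronal genes gave no called member in the shared term. The 31 pan-neuronal genes had a median of 0.04 and the 33 genes of synaptic vesicles and release one of 0.06. The enteric transmitter and peptide genes had a median of 0.14, with 12 of 19 positive and none called. At an unadjusted p under 0.05, 0 of the 19 were higher and 2 lower, against 2.86% and 2.71% of all genes tested. These 2 were Vip and Calcb. Vip, the relaxing neuropeptide of inhibitory motor neurons, stood at 62.3, 123, 107 and 168 CPM in neuronal agonist libraries. Neuronal controls held 124, 187, 156 and 315 CPM. In non-neuronal nuclei it stood at 0.756 to 17.8 CPM after agonist and 8.26 to 76.6 CPM after corn oil (shared log2 fold change -1.30, SE 0.49, adjusted p = 0.869). The groups overlapped in both populations. Medians of heat shock, p53 target, circadian clock and immediate early genes were 0.26, 0.19, 0.34 and 0.08, and no member of these 4 lists was called.

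**Figure D5:**
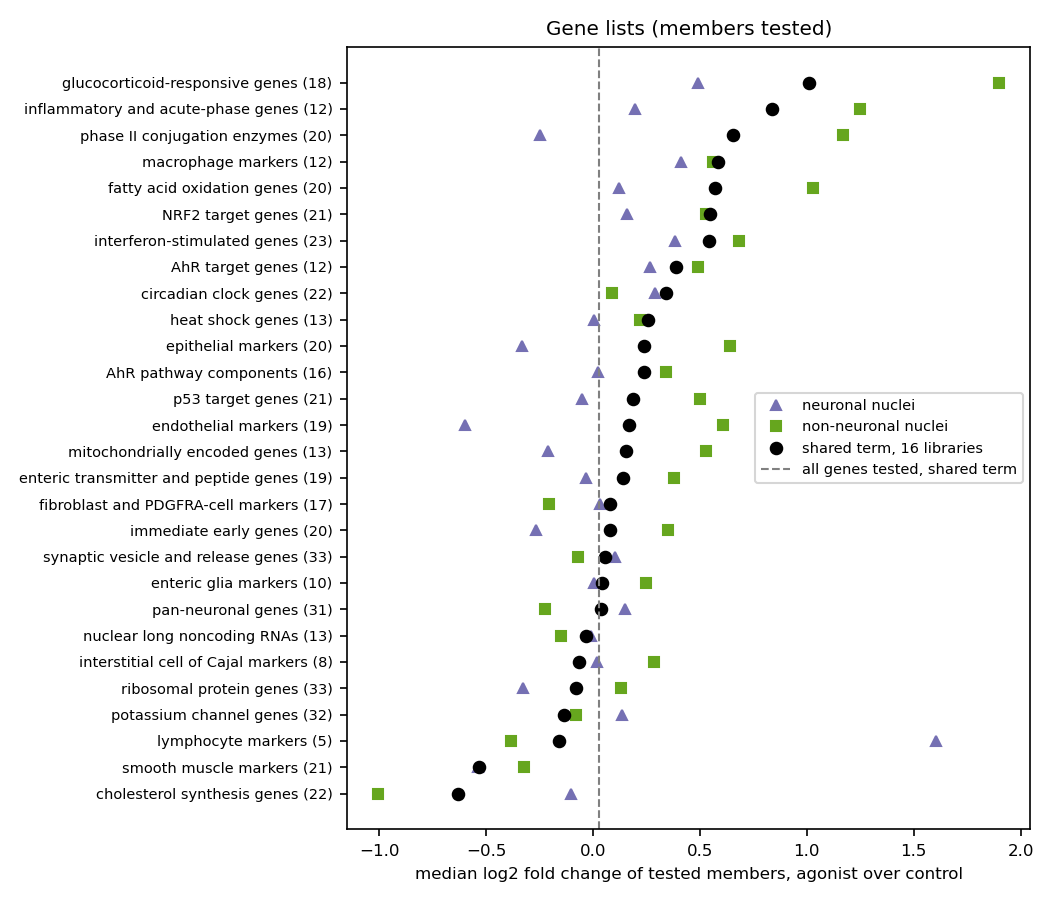
Median log2 fold change, agonist over control, of the tested members of 28 gene lists, with the number tested in brackets; circles are the shared term over 16 libraries, triangles neuronal and squares non-neuronal nuclei fitted alone, and the dashed line is the median of all genes tested, 0.03. Glucocorticoid-responsive genes lie highest at 1.01 and cholesterol synthesis genes lowest at -0.63 in the shared term.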

How the data were processed

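Expected counts per gene were deposited by the authors, made with RSEM 1.3.0 and STAR 2.5.2 on GRCm38 per the submitters' processing notes, which also name DESeq2 1.10.1. Neither the annotation release nor the use of strand is given in the sources used here. Headers of the deposited table name a project on AhR knockouts, but each library name in them says agonist or control, as the labels do, and the labels were followed. Per the labels' protocols, cDNA came from the Ovation V2 system and was read as 75 bp single ends. Replicate numbers were not taken as pairs.

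Counts for 51912 genes were rounded, and 18566 passed filterByExpr (minimum count 10, minimum total 15). edgeR 4.0.16 under R 4.3.3 fitted population plus treatment with TMM scaling and robust quasi-likelihood F-tests, two-sided, with Benjamini-Hochberg adjustment over all genes tested, after a check on simulated data. Each population was also fitted alone, and a model with an interaction over all libraries. SE is the log2 fold change over the square root of F. Symbols and positions came from GENCODE M21. Alternatives used DESeq2 1.42.0, limma 3.58.1, other scalings, filters and left-out libraries. Named are 9 AhR genes and, as fewer than 10 genes were called in a direction, the 10 with the smallest p each way. Genes, lists and tests were chosen with earlier results of these data known.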

Additional observations from a re-analysis of the deposited data

Results flagged for a closer look

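In 102 groups of 4 libraries with any spread, taken over the named genes, the genes detected and the mitochondrially encoded share, 15 had a library whose gap to its nearest neighbour, as a share of the group's range, was over Dixon's critical value. Chance alone does this in about 1 group in 20 where values are normally spread. Sparse counts are not, so the 15 cannot be set against that rate. In 9 of the 15, the other 3 libraries were all at 0 CPM, and any count in the remaining library then passes by construction.

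Those 9 were Cyp1a1 in non-neuronal control library 3 (0.299 CPM), Cyp1a2 in non-neuronal control library 2 (0.375 CPM), Aldh3a1 in neuronal agonist library 4 (1.11 CPM), neuronal control library 3 (0.242 CPM) and non-neuronal agonist library 2 (19.9 CPM), Gm20560 in non-neuronal agonist library 1 (0.378 CPM), Prickle3 in neuronal agonist library 2 (0.219 CPM), and Gm13814 and Gm37541 in neuronal agonist library 4 (0.278 CPM each). Only the Aldh3a1 value of 19.9 CPM rests on more than a few counts, 44 of them.

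Ahrr was 63.3 CPM in neuronal agonist library 4, against 54.5 to 55.8 CPM in the other neuronal agonist libraries. Ahr was 146 CPM in neuronal agonist library 3 and 69.6 to 77.6 CPM in the other libraries of that group. Maoa was 21.0 CPM in neuronal control library 3 and 9.95 to 10.2 CPM in the others. Gm20560 was 44.3 CPM in non-neuronal control library 4 and 3.00 to 4.73 CPM in the others. 4931406B18Rik was 31.0 CPM in neuronal control library 2 and 0.483 to 0.524 CPM in the others. F13a1 was 0 CPM in neuronal control library 1 and 0.242 to 0.262 CPM in the others, which is a single count apart. None of the 25 named genes that were tested passed the test of a different response between populations.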

How the results depend on the processing

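Cyp1a1 stayed called in 28 of 29 alternatives that could test it, with adjusted p from 1.30e-16 to 0.423, and its log2 fold change ran from 4.75 to 10.1. The shared term called 1 gene higher and 0 lower. The number higher was 11 with DESeq2, 6 with limma-voom, 116 with no filter, 0 with a minimum count of 50 (Cyp1a1 was then not tested) and 0 with genes detected as a covariate. The number lower was 1 with library size only, 24 with DESeq2, 1 with limma-voom, 70 with no filter and 2 with the 4-group fit. List members called, 1 in the report, were 5, 3, 7, 0 and 0 with DESeq2, limma-voom, no filter, the minimum count of 50 and the covariate. Neuronal nuclei alone gave 21 calls with DESeq2 and 132 with no filter, non-neuronal nuclei 92 and 86, with 1 under library size only and 11 from the 4-group fit. The difference between populations gave 101 calls with DESeq2, 110 with no filter and 7 with libraries over 30% mitochondrial left out, an alternative chosen after seeing the data. DESeq2 called 1 gene in both populations, Cyp1a1 (adjusted p = 0.021). The cause of these shifts was not tested.

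Leaving out 1 library at a time gave 1 to 3 higher and 0 to 1 lower calls, 1 to 3 list members, 0 to 3 calls in neuronal nuclei, 0 to 3 in non-neuronal nuclei and 0 to 9 for the difference, the 9 without non-neuronal agonist library 3. The 3 higher calls, Cyp1a1, Tiparp and Serpina3n, came without neuronal agonist library 1. Mean log2(CPM + 1) differences ran from 3.67 to 4.36 for Cyp1a1, 1.50 to 1.77 for Tiparp, 0.28 to 0.55 for Ahr and -0.12 to 0.61 for Nqo1. Nqo1 turned negative without non-neuronal agonist library 1, at -0.12, and its fitted log2 fold change of 0.77 was -0.19 without it, 1.17 without non-neuronal control library 3, -0.056 with limma-voom, -0.28 without the libraries over 30% mitochondrial and -1.13 without these and neuronal agonist library 1. Prrt2 was -0.020 with the covariate.

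The replicate numbers were not taken as pairs, as the labels do not say that same-numbered libraries share mice. Residuals of same-numbered libraries of both populations correlated at -0.0096 to 0.0737 over 8 pairs (median 0.0311). Over 24 pairs with other numbers they correlated at -0.0577 to 0.0408 (median -0.0108), and 5 of 8 matched their own number best. Same-numbered libraries were thus slightly more alike, and these values do not show that the libraries are unpaired. If they share mice, the permutation tests within populations treat paired libraries as independent. With the replicate block as a term Cyp1a1 was the only call, at a log2 fold change of 8.94 (adjusted p = 1.95e-05), and likewise with the other 2 block fits. Permuting treatment over same-numbered pairs gave p = 0.0286 for Cyp1a1 (4.00) and Tiparp (1.60), the smallest that its 70 exact arrangements allow, which cannot pass after adjustment over 9 genes. Genes detected still differed, by -4296 (p = 0.0286 in that exact permutation test).

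Library size as the only scaling moved the median log2 fold change of all genes to -0.21, against 0.03, and the AhR target list is 1 of several whose median changed sign in some setting, while the glucocorticoid-responsive (0.72 to 1.37), interferon (0.12 to 0.75), fatty acid oxidation, cholesterol synthesis (-0.86 to -0.41) and smooth muscle medians kept theirs in all 30. With 4 libraries a group and 2663738 to 4902303 counts each, genes of few counts limit what the shared term can show.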

Other observations

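Gene groups that the account above leaves out also had no called member in the shared term. Phase II conjugation enzymes, which attach glutathione, glucuronate or sulfate to foreign compounds, had a median log2 fold change of 0.66 over 20 tested members, 13 of them positive, with -0.25 in neuronal and 1.17 in non-neuronal nuclei. Macrophage markers had a median of 0.58 over 12 members, and Itgam, the alpha chain of complement receptor 3, stood at 75.2, 44.2, 47.6 and 7.87 CPM in non-neuronal agonist and 9.47, 15.4, 24.2 and 27.2 CPM in non-neuronal control libraries (shared log2 fold change 1.52, SE 0.71, adjusted p = 0.869). Potassium channel genes had a median of -0.13 over 32 members, and ribosomal protein genes one of -0.08 over 33.

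Immediate early genes were positive in 10 of 20. Jun, a transcription factor, was the 1 member higher at an unadjusted p under 0.05, as were 2.86% of all genes tested. It stood at 30.2, 47.5, 28.3 and 44.1 CPM in neuronal agonist and 6.02, 7.44, 14.5 and 17.8 CPM in neuronal control libraries, without overlap, and at 43.8 to 148 CPM in non-neuronal agonist and 63.0 to 120 CPM in non-neuronal control libraries (shared log2 fold change 0.85, SE 0.39, adjusted p = 0.869). Calcb, the gene of beta calcitonin gene-related peptide, stood at 0 CPM in all 4 non-neuronal agonist libraries and at 2.25 to 5.08 CPM in their controls, and at 0 to 13.5 CPM in neuronal agonist and 9.68 to 12.6 CPM in neuronal control libraries (-2.55, SE 1.17, adjusted p = 0.869). Fibroblast markers had a median of 0.08, with 9 of 17 positive and none called. At an unadjusted p under 0.05 they held 1 higher gene, Has1, a hyaluronan synthase (2.21, SE 1.03, adjusted p = 0.869), and 1 lower, Col1a1. Of all genes tested, 2.86% were higher and 2.71% lower at that threshold. Col1a1, the alpha-1 chain of type I collagen, stood at 0 to 2.19 CPM in neuronal agonist and 1.57 to 9.49 CPM in neuronal control libraries, and at 23.8 to 89.7 and 49.0 to 177 CPM in non-neuronal nuclei after agonist and after corn oil (-1.82, SE 0.52, adjusted p = 0.699).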
